A study of Mus musculus with 8 samples.

Results

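Serpins are a family of proteins that mostly block proteases, and their transcripts were followed here in mouse morulae that had been depleted of P150. P150, encoded by Chaf1a, belongs to CAF-1, a complex that loads histones onto newly copied DNA. The P150KD group had 5 arrays, from embryos injected at the 1-cell stage with siRNA against P150, and the siControl group had 3 arrays, from embryos injected with a control siRNA. Both groups were in vitro fertilised embryos cultured to the morula at embryonic day 3.0, and each array held amplified RNA of 10 pooled embryos. The mouse strain is not given in the sources used here. The members were chosen by gene symbol: each probe whose RefSeq accession belongs to a gene named Serpin with a clade letter from a to i and a number was taken, which gave 75 probes for 60 genes among the 20656 genes named on the array. The family was selected with results of this same comparison already known, above all the fall of Serpinb6b. The counts of members below are therefore a description, and nothing is read from them.

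An inhibitory serpin exposes a loop that resembles the substrate of a protease, and when the protease cuts that loop the serpin folds around it and traps it in a covalent complex. The clade letters follow sequence relationship. Clade a and clades c to g are mostly secreted into blood or the extracellular space, where they restrain coagulation, plasminogen activation, complement and leukocyte elastase, whereas clade b members lack a signal peptide and stay largely inside the cell, where they guard against leaked lysosomal and granule proteases. Some members inhibit nothing and act as hormone carriers or, in the case of Serpinh1, as a collagen chaperone in the endoplasmic reticulum. In the mouse, clades a and b have expanded into tandem arrays of close paralogs.

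The members called lower in P150KD were the 5 Serpinb6 genes on chromosome 13, and the 150 bases upstream of the most upstream RefSeq start of each are printed for comparison, because these genes are paralogs. The sequences are RefSeq's for build GRCm38.p6, read 5′ to 3′ on the strand of the gene, and capitals mark matches on either strand to AGGTCA, which reads TGACCT on the other strand and is the core motif of nuclear receptors, and to CCACCC, which reads GGGTGG on the other strand and is bound by KLF factors. The windows lie at chr13:33661255-33661404 (plus strand), chr13:33843409-33843558 (minus strand), chr13:33905192-33905341 (minus strand), chr13:34002795-34002944 (minus strand) and chr13:32965111-32965260 (plus strand).
Serpinb6d: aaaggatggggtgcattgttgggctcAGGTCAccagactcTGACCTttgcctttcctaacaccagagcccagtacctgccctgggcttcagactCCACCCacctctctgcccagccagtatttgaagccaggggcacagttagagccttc
Serpinb6e: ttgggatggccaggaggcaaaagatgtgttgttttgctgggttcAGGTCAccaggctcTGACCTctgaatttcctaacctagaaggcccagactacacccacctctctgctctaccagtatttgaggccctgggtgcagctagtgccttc
Serpinb6c: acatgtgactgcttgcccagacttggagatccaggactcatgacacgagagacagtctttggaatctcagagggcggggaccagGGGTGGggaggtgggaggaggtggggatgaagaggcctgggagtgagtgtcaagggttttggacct
Serpinb6a: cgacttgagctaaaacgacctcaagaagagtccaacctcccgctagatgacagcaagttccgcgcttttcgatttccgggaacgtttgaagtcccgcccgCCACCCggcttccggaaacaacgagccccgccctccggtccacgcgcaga
Serpinb6b: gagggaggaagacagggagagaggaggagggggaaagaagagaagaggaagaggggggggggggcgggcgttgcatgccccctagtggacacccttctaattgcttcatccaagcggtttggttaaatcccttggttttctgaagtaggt
The windows of Serpinb6d and Serpinb6e each held 2 matches to AGGTCA, facing each other. In Serpinb6d their first bases lay 124 and 110 bases before the start, and in Serpinb6e 106 and 92 bases before it. The motif was picked out after the sequences and the values had been seen. Of 32851 RefSeq promoter windows of the same length, 8.58% held at least 1 such match and 0.557% held 2 or more. The windows of Serpinb6c, Serpinb6a and Serpinb6b held none. CCACCC was present in Serpinb6d, Serpinb6c and Serpinb6a, against 19.7% of all windows. No marked match overlapped another. Matches to GGAATG (TEAD factors, 7.59% of all windows), TGANTCA (AP-1, 4.24%) and TATAAA (the TATA box, 7.57%) were looked for on both strands and none was found in these windows. Over the longer RefSeq promoter windows at these starts, Serpinb6d and Serpinb6e were 66.9% identical, and each of the other Serpinb6 pairs between 43.2% and 47.8%. By the same measure, pairs of a Serpinb6 and a Serpinb9 promoter were 40.9% to 49.8% identical over all starts. Apart from Serpinb6d with Serpinb6e, the Serpinb6 pairs thus lay within that range. The AGGTCA matches and the 66.9% identity depend on the start. The window of the other RefSeq start of Serpinb6d, chr13:33661325-33661474 (plus strand), held 0 matches to AGGTCA. It overlaps the printed window, and the 2 matches printed there lie upstream of it. From that start the longer window was 42.1% identical to that of Serpinb6e, the lowest value of any Serpinb6 pair. The Serpinb6a window held 17 CpG dinucleotides, against a median of 4 over all windows. Those of Serpinb6c and Serpinb6b held 2 or 3, and those of Serpinb6d and Serpinb6e 0. At the other RefSeq start of Serpinb6a the window held 2 CpG dinucleotides and 0 matches to CCACCC.

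Levels are log2 processed signals minus the log2 75th percentile of their array, so a level of 0 is a signal at that percentile. Levels of different genes come from different probes and are not set against each other. A probe counts as well above background by a flag of the scanner software, and it was tested where 3 or more of the 8 arrays carried that flag, and a gene with several such probes is represented by the brightest. Of the 60 serpin genes, 26 could be tested, 16 were well above background on some array but too few, and 18 were dim on all 8. Between 22 and 28 serpin genes were well above background on the P150KD arrays and 24 or 25 on the siControl arrays. By array, the share of spots above background ran from 50.1% to 55.9%. The labels number the arrays as replicates without saying whether they came from separate collections of embryos, so each p-value measures only the spread between these samples. In RNA pooled from whole embryos, fewer cells with a transcript and less of it in each cell cannot be told apart.

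The siRNA target Chaf1a stood at -0.62 ± 0.85 in P150KD (SD, n = 5) and 2.25 ± 0.16 in siControl (SD, n = 3), with a log2 difference of -2.88 (SE 0.48, limma adjusted p = 0.0107). All 13 markers of the morula and preimplantation embryo were tested, and Pou5f1 stood at 5.16 ± 0.22 in P150KD and 5.62 ± 0.22 in siControl. The markers of cumulus cells, the somatic cells around the egg, could be tested for 3 of 13 genes, and Has2, Ptx3, Tnfaip6, Ptgs2 and Fshr were not well above background on any array. Over all 14598 genes with a tested probe the median log2 difference was -0.24, and 10.5% of them fell and 6.65% rose (limma, two-sided, Benjamini-Hochberg adjusted over all 30348 tested probes, threshold 0.05). Scaled to housekeeping genes instead, that median was 0.29, so differences near these values have no settled direction. Of the 21 housekeeping genes used, 5 themselves fell and 0 rose before that scaling (limma, median log2 difference -0.29).

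Of the 26 tested serpin genes, 5 fell in P150KD, against the 10.5% of all genes, and 1 rose, against the 6.65%. All 5 that fell were the Serpinb6 genes, of which Serpinb6b met the rule for testing through the siControl arrays alone. The one that rose was Serpina1f. Over the 26 genes the median log2 difference was -0.10. Of the 21 outside Serpinb6, 11 were higher and 10 lower in P150KD, with a median of 0.00, and 20 were not called. At an unadjusted p under 0.05 (limma) there were 6 of these 21. Of all 30348 tested probes, 3597 higher and 5639 lower in P150KD reached that level. The count of 6 is near that share and is no result about these genes.

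**Figure D1:**
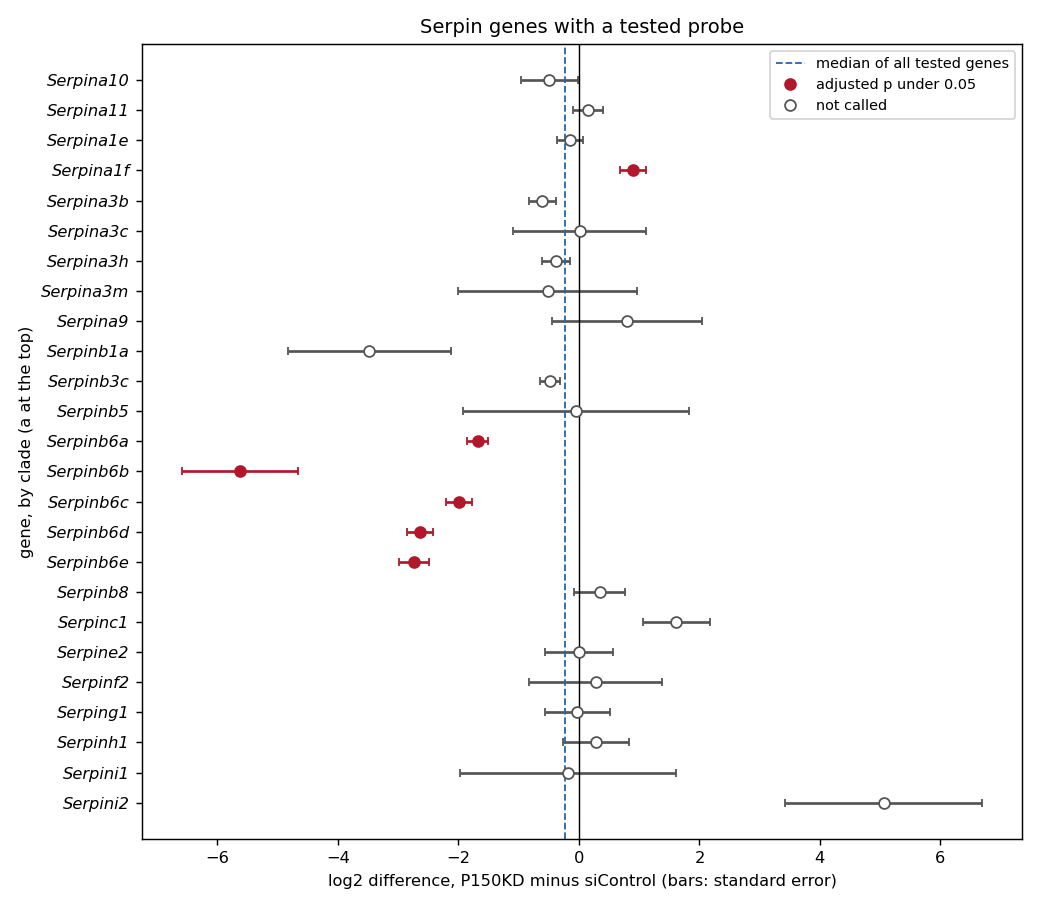
Log2 difference, P150KD minus siControl, of 25 serpin genes with a tested probe, ordered by clade from a at the top; points are limma estimates, bars their standard errors, filled points have an adjusted p under 0.05, and the dashed line is the median of all tested genes at -0.24. The 5 Serpinb6 genes lie between -5.62 and -1.68, where the value of Serpinb6b rests on P150KD signals not well above background, Serpina1f lies at 0.90, and the open points of Serpinb1a and Serpini2 have wide bars.

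Serpinb6a is the mouse counterpart of human SERPINB6, an intracellular inhibitor known to block cathepsin G and trypsin-like proteases. It read 5.44, 5.94, 5.73, 5.62 and 5.52 on P150KD replicates 1 to 5, against 7.35, 7.37 and 7.26 on siControl replicates 1 to 3. The knockdown arrays all lay well below the controls, whose spread was narrow. The signal was 3.20-fold lower in P150KD (log2 difference -1.68, SE 0.17, limma adjusted p = 0.00261).

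Serpinb6c, a mouse paralog of Serpinb6a, was bright on the same scale. Its brighter probe read 4.94, 5.55, 5.45, 5.31 and 5.05 in P150KD, against 7.23, 7.03 and 7.50 in siControl. The groups did not overlap, and the fall was 3.98-fold (log2 difference -1.99, SE 0.21, limma adjusted p = 0.00291). The other tested probe of the gene gave a log2 difference of -2.02 (SE 0.20, limma adjusted p = 0.00226).

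Serpinb6d and Serpinb6e are neighbouring paralogs of the same group. Serpinb6d read 0.84, 1.25, 1.28, 1.46 and 1.13 in P150KD, against 3.67, 3.62 and 4.20 in siControl. It fell 6.23-fold (log2 difference -2.64, SE 0.22, limma adjusted p = 0.00148), again with no overlap. Serpinb6e read -0.86, -0.47, -0.33, -0.15 and -0.63 in P150KD, against 2.13, 1.90 and 2.71 in siControl. Its fall was 6.66-fold (log2 difference -2.74, SE 0.25, limma adjusted p = 0.00201). Signal may be shared between probes of close paralogs, Serpinb6a and Serpinb6c included, so these are not known to be independent measurements.

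Serpinb6b was not well above background on any P150KD array, where it read -5.73, -7.04, -6.78, -7.13 and -7.26. It was well above background on all 3 siControl arrays, at -3.89, 0.45 and -0.06. The groups did not overlap, but the controls were spread widely and replicate 1 was far below the other two. Each knockdown array was given the higher of its own signal and the dimmest flagged signal on it. Against that, Serpinb6b was at least 15.7-fold lower in P150KD. The gene met the rule for testing through the siControl arrays alone. Its limma adjusted p of 0.0118 comes from the measured signals and not from the bound, and no weight is put on it. The bound rests on the controls: it was 40.4-fold without siControl replicate 1, 8.97-fold without siControl replicate 2 and 10.7-fold without siControl replicate 3. With normexp background correction the fitted fold was 7.19, under the bound. Measured means were -6.79 ± 0.62 in P150KD (SD, n = 5) and -1.17 ± 2.37 in siControl (SD, n = 3).

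**Figure D2:**
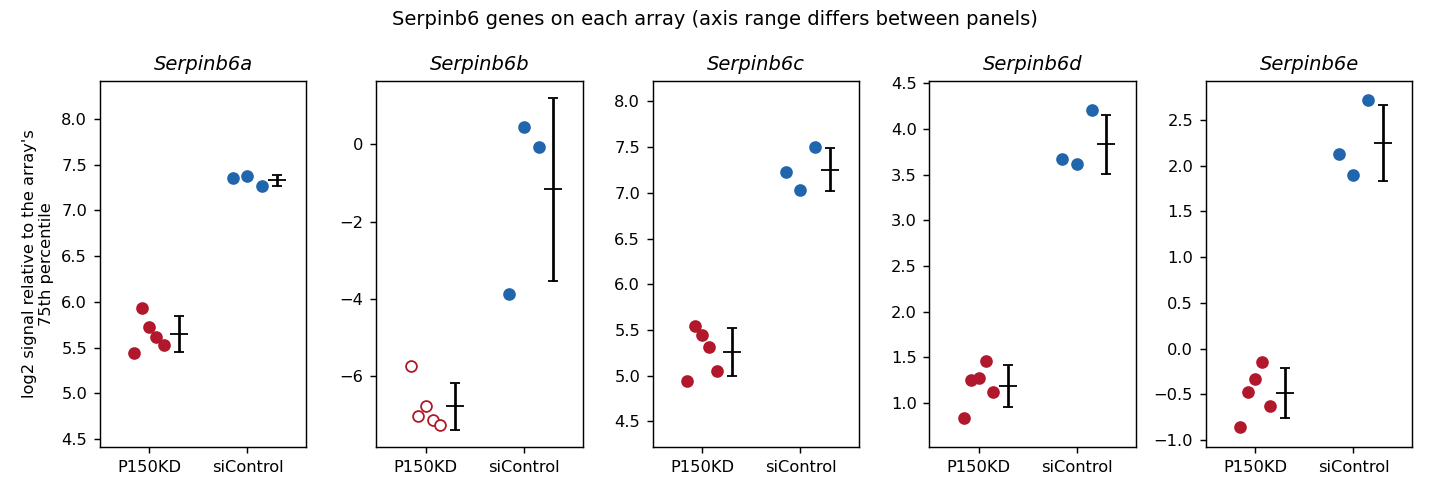
Level of each Serpinb6 gene on each array, as log2 signal relative to the array's 75th percentile; points are arrays, P150KD in red left of siControl in blue, open points were not well above background, and black bars are the mean ± SD. In each panel all 5 P150KD points lie below all 3 siControl points, and for Serpinb6b all 5 P150KD points are open.

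The arrays lie on 1 slide, and the first position number in the file headers splits them into 2 parts. One part holds P150KD replicate 1 with the 3 siControl arrays, and the other P150KD replicates 2 to 5. With the slide part as a block, only P150KD replicate 1 is set against the controls, and the spread comes from both parts. The log2 differences were then -1.89 for Serpinb6a (limma adjusted p = 0.032), -2.31 for Serpinb6c (0.0305), -2.99 for Serpinb6d (0.02) and -3.11 for Serpinb6e (0.0248). For Serpinb6b the limma adjusted p was 0.192, which ends the call. With each array left out in turn the falls of the 4 genes measured in both groups remained called. Serpinb6a ran between -1.75 and -1.63, Serpinb6c between -2.10 and -1.87, Serpinb6d between -2.75 and -2.45, and Serpinb6e between -2.91 and -2.50. For Serpinb6b, whose fitted differences depend on signals not well above background, the limma adjusted p was then 0.00193 to 0.0455. No weight is put on these values. With scaling to housekeeping genes, under which the median of all genes is above 0, the 4 genes measured in both groups ran from -2.21 for Serpinb6e to -1.15 for Serpinb6a.

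Other genes of the embryo differed alongside them. Of the 13 morula markers 3 fell, against 10.5% of all genes, and 1 rose, against 6.65%. Krt18, a keratin of the outer layer that becomes the trophectoderm, stood at 3.69 ± 0.55 in P150KD and 6.78 ± 0.21 in siControl (log2 difference -3.09, limma adjusted p = 0.00296). Gata3, a transcription factor of that layer, differed by -1.75 (limma adjusted p = 0.0456), and Tead4, another, by -0.87 (limma adjusted p = 0.0243). Dppa2, a gene of pluripotent cells, rose by 0.77 (limma adjusted p = 0.0223). None of the other markers was called. Their log2 differences were 0.80 for Dppa4, 0.12 for Sall4, -0.46 for Pou5f1 and -0.62 for Nanog. They were -0.16 for Tfap2c, -0.27 for Cdh1, -0.67 for Epcam, -1.31 for Cdx2 and -2.10 for Krt8. The summed level of the 13 markers, in log2, lay between 9.18 and 9.39 in P150KD and between 9.35 and 9.50 in siControl, and the part of the embryo's cell types in the serpin differences was not tested.

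Clade b genes are also abundant in leukocytes. Of 15 leukocyte markers 8 were tested and 3 rose, against 6.65% of all genes. On the log2 scale Cd74 rose by 2.31, Coro1a by 2.67 and Srgn by 1.97, with limma adjusted p of 0.00808, 0.0146 and 0.0417. The summed log2 level of the 8 markers was 2.35 to 3.48 in P150KD and 0.85 to 1.26 in siControl. Ptprc, the defining leukocyte gene, and Lyz2, Tyrobp, Laptm5, Spi1 and Cd53 were not well above background on any array, and Cd79a was so on 1 array of each group. Of the other tested markers none was called, with log2 differences of 1.88 for Itgb2, 0.01 for Cd3e, -0.29 for Fcer1g, -0.79 for Cd48 and -1.56 for Cd52. Their part in the serpin differences was not tested.

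In RefSeq's gene order, 15 clade b genes with a probe lie in 1 run on chromosome 13. Serpinb6d, Serpinb6e, Serpinb6c and Serpinb6a are neighbours at its far end, and Serpinb6b stands apart between Serpinb1c and Serpinb9. Of the 10 genes of the run outside Serpinb6, 8 were well above background somewhere, but 1 could be tested. That was Serpinb1a, which encodes an inhibitor of neutrophil elastase, proteinase 3 and cathepsin G. It read -6.10, -6.69, -4.53, -6.16 and -3.40 in P150KD, against -4.94, -1.85 and 1.10 in siControl. Serpinb1a was well above background only on P150KD replicates 3 and 5 and siControl replicates 2 and 3. The groups overlapped, the controls were widely spread, and the log2 difference of -3.48 (SE 1.36) was not called (limma adjusted p = 0.131).

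The genes next to the run were taken by their position, after the values of the serpins had been seen. On the side of Serpinb1a, Wrnip1, which encodes an ATPase of DNA repair, stood at 3.46 ± 0.13 in P150KD and 4.13 ± 0.16 in siControl and fell (log2 difference -0.67, SE 0.17, limma adjusted p = 0.0375). On the side of Serpinb6a, none of the 5 tested genes was called. Their log2 differences were -0.27 for 1110046J04Rik, -0.90 for the quinone reductase gene Nqo2, -0.13 for the cell death kinase gene Ripk1, -1.20 for the hydrolase gene Bphl and 0.31 for the tubulin gene Tubb2a, with limma adjusted p between 0.176 and 0.931.

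**Figure D3:**
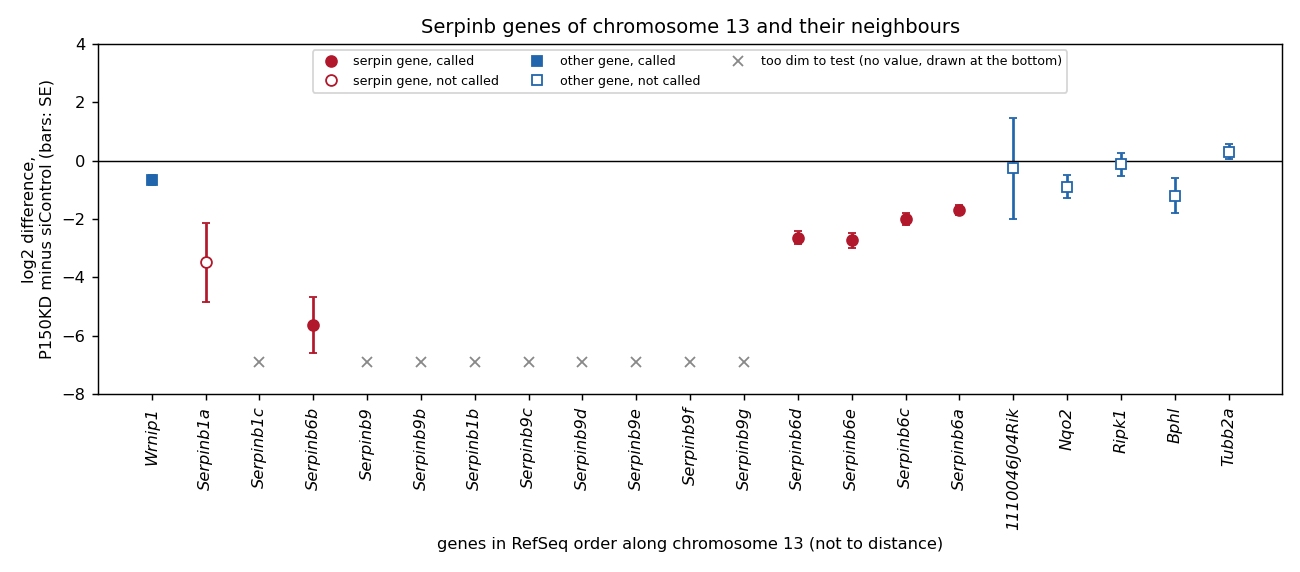
Log2 difference, P150KD minus siControl, of the genes with a named probe along the Serpinb run of chromosome 13, in RefSeq order and not to distance; circles are serpin genes, squares other genes, bars standard errors, filled symbols have an adjusted p under 0.05, and crosses at the bottom mark genes too dim to test. Serpinb6d, Serpinb6e, Serpinb6c and Serpinb6a lie between -2.74 and -1.68, the 5 genes to their right are open, and Serpinb6b at -5.62 stands among dim genes.

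The dim genes of the run rose above background on single arrays. Serpinb9 encodes the inhibitor of granzyme B in cytotoxic lymphocytes, and it was well above background on siControl replicate 2, at -4.34. Its paralogs Serpinb9f and Serpinb9g were so on P150KD replicate 4, at -1.32 and -2.20, and Serpinb9e on the same array by one probe, at -2.70, and on P150KD replicate 5 by another, at -2.28. The 2 probes of Serpinb9e thus lit on different arrays. The promoters of Serpinb9d, Serpinb9e, Serpinb9f and Serpinb9g are 82.9% to 93.4% identical. Promoter identity does not tell whether the probes share signal, and that was not tested. Serpinb1b was well above background on P150KD replicates 1 and 2, at -1.80 and -3.16, and Serpinb1c on siControl replicates 1 and 3, at -4.94 and -3.02. Serpinb9b was so on P150KD replicate 5 and siControl replicate 3, at -4.53 and -4.60. Serpinb9c and Serpinb9d were dim on all 8 arrays. None of these genes was above background on enough arrays to be tested.

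**Figure D4:**
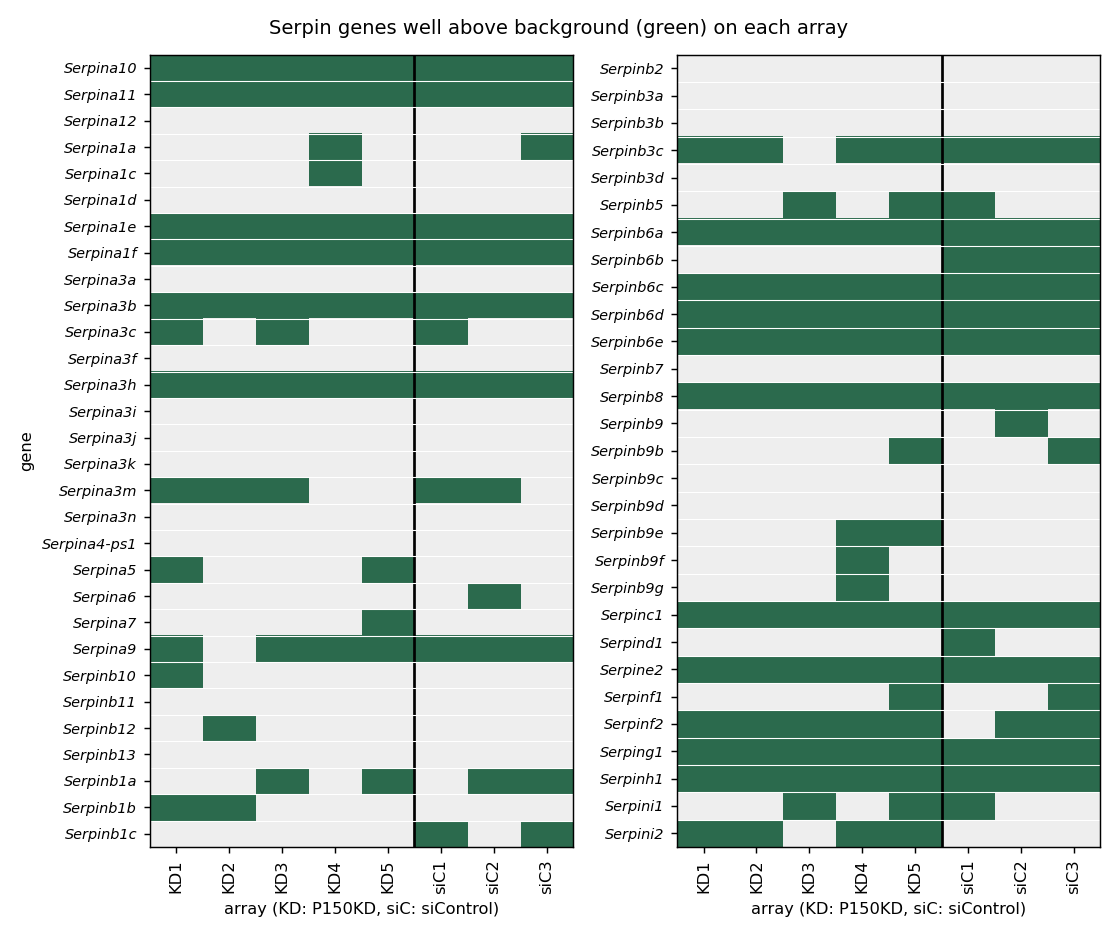
Serpin genes (rows) well above background on each array (columns), P150KD replicates left of the siControl replicates; green means that at least 1 probe of the gene was well above background. A core of genes is green throughout, Serpinb6b is green on the 3 siControl arrays, Serpini2 on 4 P150KD arrays, and many others on 1 or 2 arrays.

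On chromosome 1 clade b has 12 genes, of which 3 were tested and 7 were dim on all arrays. Serpinb8, whose human counterpart inhibits furin, was bright in both groups, at 5.44 ± 0.30 in P150KD (SD, n = 5) and 5.10 ± 0.98 in siControl (SD, n = 3). Its log2 difference was 0.34 (SE 0.42, limma adjusted p = 0.622). Serpinb3c, of the group related to the squamous cell carcinoma antigens, read -4.63, -4.80, -4.89, -4.64 and -4.56 in P150KD, against -4.16, -4.34 and -4.16 in siControl. The groups did not overlap but the difference was small (log2 difference -0.48, SE 0.16, limma adjusted p = 0.0858). Serpinb3c was not well above background on P150KD replicate 3. Serpinb5, which encodes maspin, a serpin that does not inhibit proteases, was well above background on P150KD replicates 3 and 5 and siControl replicate 1, at -0.42, -2.81 and -2.56. Its means were -4.88 ± 3.10 in P150KD and -4.83 ± 2.33 in siControl (log2 difference -0.05, limma adjusted p = 0.989). Serpinb12 was well above background on P150KD replicate 2 alone, at 0.30, and Serpinb10 on P150KD replicate 1 alone, at -3.89. Serpinb2, Serpinb3a, Serpinb3b, Serpinb3d, Serpinb7, Serpinb11 and Serpinb13 were dim throughout.

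Clade a holds 23 genes, the relatives of alpha-1-antitrypsin and antichymotrypsin, and all but Serpina7 lie on chromosome 12. Of these, 9 were tested and 1 was called, a rise, against the 6.65% of all genes that rose and 10.5% that fell. This count is no result about the clade. Serpina1f, a member of the alpha-1-antitrypsin group, read -1.71, -1.87, -1.79, -1.20 and -1.50 in P150KD, against -2.33, -2.80 and -2.40 in siControl. The groups did not overlap, and the signal was 1.86-fold higher in P150KD (log2 difference 0.90, SE 0.22, limma adjusted p = 0.0362). This call was fragile. It was lost on leaving out siControl replicate 1, 2 or 3 or P150KD replicate 1, 3, 4 or 5. The limma adjusted p was then 0.0581 to 0.118. The call was also lost with the slide part in the fit (log2 difference 0.80, limma adjusted p = 0.33).

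Its neighbour in sequence, Serpina1e, stood at -4.83 ± 0.25 in P150KD and -4.67 ± 0.24 in siControl (log2 difference -0.15, limma adjusted p = 0.663). Of the antichymotrypsin-like genes, Serpina3b read -4.59, -4.32, -4.65, -4.10 and -4.12 in P150KD, against -3.95, -3.90 and -3.41 in siControl. It was lower without overlap, but the log2 difference of -0.61 (SE 0.22) was not called (limma adjusted p = 0.115). Serpina3h differed by -0.37 (SE 0.23, limma adjusted p = 0.316). Serpina3m and Serpina3c were above background on 5 and 3 arrays, and their differences of -0.52 (SE 1.49) and 0.01 (SE 1.10) lay within a wide spread.

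Serpina10, the inhibitor of factor Xa that works with protein Z, stood at -2.68 ± 0.58 in P150KD and -2.19 ± 0.89 in siControl (log2 difference -0.49, limma adjusted p = 0.524). Serpina11 differed by 0.15 (SE 0.25, limma adjusted p = 0.716). Serpina9, known from germinal centre B cells, ran from -5.39 to -0.32 in P150KD and from -4.24 to -2.22 in siControl, and its difference of 0.79 (SE 1.25) was smaller than its standard error. Among the untested genes, Serpina5, the protein C inhibitor, was well above background on P150KD replicates 1 and 5, at -1.25 and -4.21, and the thyroxine carrier Serpina7 on P150KD replicate 5, at -2.55. The corticosteroid carrier Serpina6 was so on siControl replicate 2, at -4.56, Serpina1c on P150KD replicate 4, at -4.59, and Serpina1a on P150KD replicate 4 and siControl replicate 3, at -4.62 and -4.70. Serpina1d, Serpina3a, Serpina3f, Serpina3i, Serpina3j, Serpina3k, Serpina3n, Serpina4-ps1 and Serpina12 were dim on all arrays.

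Many clade a genes are typical of liver and visceral endoderm. Of 13 markers of such secretory cells 5 were tested and none was called (limma), Alb and Ttr were not well above background on any array, and their summed log2 level was 0.80 to 2.08 in P150KD and 1.38 to 2.37 in siControl.

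The secreted inhibitors of coagulation and plasminogen activation were mostly measured in both groups, and none was called. Serpinc1, antithrombin, read 0.79, -0.56, 0.80, 0.06 and 0.01 in P150KD, against -0.95, -0.51 and -2.73 in siControl. The groups overlapped by 1 knockdown array, and the log2 difference of 1.62 (SE 0.56) had a limma adjusted p of 0.0957. It passed with the scaling to housekeeping genes (2.14, limma adjusted p = 0.0443), under which the median of all genes is above 0. Serpine2, protease nexin-1, which inhibits thrombin and plasminogen activators, stood at -1.98 ± 0.62 in P150KD and -1.98 ± 1.15 in siControl. Serpinf2, the plasmin inhibitor, differed by 0.28 (SE 1.11). Serpind1, heparin cofactor II, was well above background on siControl replicate 1 alone, at -2.06, and Serpinf1, the neurotrophic factor PEDF, on P150KD replicate 5 and siControl replicate 3, at -0.96 and -4.38.

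Serping1, the C1 inhibitor of the complement cascade, stood at -0.76 ± 0.93 in P150KD and -0.73 ± 0.42 in siControl by its brighter probe. The log2 differences of its 2 probes were -0.03 and -0.27 (SE 0.54 for both), and both probes were lowest on P150KD replicate 3, at -2.40 and -2.46. Serpinh1, the collagen chaperone, stood at 0.94 ± 0.86 in P150KD and 0.66 ± 0.75 in siControl (log2 difference 0.28, limma adjusted p = 0.764).

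In clade i, Serpini1, neuroserpin, which inhibits tissue plasminogen activator, was well above background on P150KD replicates 3 and 5 and siControl replicate 1, at -3.75, -2.45 and -1.67, and was near the floor on the others. Serpini2, known from the pancreas, read 0.78, -0.25, -7.13, -2.33 and -2.97 in P150KD, against -7.40, -7.59 and -7.34 in siControl. It was above background on 4 of 5 knockdown arrays and on no control array, so only a bound can be given: it was at least 6.81-fold higher in P150KD, and not called (limma adjusted p = 0.0811). The bound rests on a few bright arrays: it was 3.94-fold without P150KD replicate 1, 4.71-fold without P150KD replicate 2 and 15.5-fold without P150KD replicate 3, on which the gene was dim. Leaving out P150KD replicate 3 also brought the limma adjusted p to 0.0142. Serpini2 met the rule for testing through the P150KD arrays alone. Both adjusted p come from the measured signals and not from the bound, and no weight is put on them. With normexp background correction the fitted fold was 5.47, under the bound.

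The proteases and other inhibitors around the serpins were looked at in lists that were made with earlier results of these data known, and each is given by its counts beside the median of -0.24 over all genes and the 10.5% of genes that fell and 6.65% that rose. Counts near those shares are no result about a list. Of 19 tested proteases of granules and lysosomes, which include targets of clade b serpins, 2 rose and 1 fell (median -0.04). The lysosomal protease gene Ctsb stood at 4.67 ± 0.10 in P150KD and 5.97 ± 0.19 in siControl and fell (log2 difference -1.30, limma adjusted p = 0.00461). The related Ctsh rose by 1.35 (limma adjusted p = 0.0127) and Ctsz by 0.63 (limma adjusted p = 0.0444), and Lgmn, legumain, differed by -0.63 (limma adjusted p = 0.0625). The granzyme genes Gzmb to Gzmg were too dim to test.

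Of 20 tested genes in a list of mostly membrane-bound and secreted serine proteases, 5 fell, against 10.5% of all genes, and none rose, with a median of -1.46. Prss8, prostasin, stood at -0.34 ± 0.43 in P150KD and 2.26 ± 0.46 in siControl (log2 difference -2.60, limma adjusted p = 0.00427). Htra2, which was in this list although its product is mitochondrial, fell by 2.02 (limma adjusted p = 0.00445), the secreted protease gene Htra3 fell by 1.94 (limma adjusted p = 0.00774), and Furin, a proprotein convertase, fell by 1.65 (limma adjusted p = 0.00849).

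Of 23 tested genes of plasminogen activation and coagulation, 1 rose and 1 fell (median -0.33). F2rl1, a receptor that proteases activate by cutting, stood at -5.17 ± 1.32 in P150KD and -1.89 ± 0.21 in siControl and fell (limma adjusted p = 0.025). It was well above background on only 3 P150KD arrays. C1ra, a complement protease held in check by the C1 inhibitor, stood at 0.07 ± 0.31 in P150KD and -4.14 ± 2.67 in siControl and rose (limma adjusted p = 0.0356). It was well above background on only 2 siControl arrays and read -7.20 on siControl replicate 3. Procr, the receptor of protein C, differed by 0.90 (limma adjusted p = 0.0697).

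Of 30 tested protease inhibitors of other families, 3 rose and 7 fell (median -0.26). Cstb, cystatin B, an intracellular inhibitor of cathepsins, stood at 3.53 ± 0.07 in P150KD and 4.92 ± 0.04 in siControl and fell (limma adjusted p = 0.00261). Wfdc2, which has a WAP domain, fell by 2.37 (limma adjusted p = 0.00234). Spink10, of the Kazal family, was not above background on any knockdown array and met the rule for testing through the siControl arrays alone. It was at least 8.80-fold lower in P150KD. Measured means were -7.25 ± 0.17 in P150KD and -2.0 ± 2.1 in siControl, and the limma adjusted p of 0.00844 comes from the measured signals. Stfa2, a stefin, rose by 2.15 (limma adjusted p = 0.00289).

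Of 23 tested genes listed for collagen folding and export, the setting in which Serpinh1 works, 2 rose and 2 fell (median -0.33). Fkbp10, a prolyl isomerase that works on procollagen, stood at 2.45 ± 0.26 in P150KD and -0.75 ± 0.53 in siControl, and rose by 3.20 (limma adjusted p = 0.00172). Tango2, which is not known as a collagen gene although the list held it, rose by 1.20 (limma adjusted p = 0.0342), the vesicle coat gene Sec23a fell by 1.22 (limma adjusted p = 0.00822), and P4hb, a subunit of prolyl hydroxylase, fell by 0.63 (limma adjusted p = 0.0375).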

How the data were processed

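Per the file headers, the authors read 8 one-colour arrays of 1 slide, designed on mouse build mm9, with Agilent Feature Extraction 10.5.1, and deposited intensity values that are background-subtracted. Their deposited log2 table is scaled to the 75th percentile and centred per probe, found by comparison with the scanner files (99.8% of values within 0.01); its centring leaves no absolute level. The labels describe 2 rounds of RNA amplification, so levels are relative. Flag columns hold other values (0 or 1), as deposited.

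Here, spots of a probe were averaged, control and outlying spots left out, and log2 signals scaled to the 75th percentile, which was 819 to 1304 intensity units. Probes were named through RefSeq accessions: 27229 of 55681 received 1 symbol and 1456 accessions had no match. Serpina16, Serpina1b, Serpina3d-ps, Serpina3e-ps, Serpina3g, Serpina3l-ps, Serpinb1-ps1, Serpinb9h and Serpine3 had no named probe and were not analysed here.

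The groups were compared by lmFit and eBayes of limma 3.58.1 (R 4.3.3), two-sided and without covariates; p-values of all 30348 tested probes were adjusted together by Benjamini-Hochberg. The members and lists were chosen with earlier results of these data known. By rule every serpin gene is named, and up to 4 genes of each list by smallest unadjusted p; 1 tested serpin gene and 1 list gene enter the counts but are not reported here. Alternatives were normexp (offset 50), quantile, median and housekeeping scaling, the authors' table, 2 other filters, replicate number and slide part as blocks, trend and robust eBayes, array weights (statmod 1.5.0), the mean over probes, and leaving out each array. Figures used matplotlib 3.10.9. The number of arrays limits the precision.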

Additional observations from a re-analysis of the deposited data

Results flagged for a closer look

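Serping1 read -2.40 on P150KD replicate 3, apart from the other 4 P150KD arrays by a gap of 0.811 of the range, more than Dixon's 95% critical value of 0.71 for 5 samples. It was the 1 gene to stand apart in this way among the 25 tested serpin genes examined, and chance flags about 1 in 20 groups. The siControl group, with 3 arrays, was not examined this way.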

How the results depend on the processing

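The 5 Serpinb6 falls kept their direction under every alternative run, and were called under each except the replicate number as a block and, for Serpinb6b, the slide part as a block. Serpinb6b met the rule for testing through the siControl arrays alone, so no weight is put on its calls. With normexp the fitted Serpinb6b difference was -2.85. Limited to probes above background on all 8 arrays, Serpinb6b could not be tested. The labels do not say whether the replicate numbers pair the samples. The deviations of same-numbered arrays correlated at -0.01, -0.07 and -0.02, which with so few arrays cannot decide it. With the replicate block, which uses 3 pairs, limma called 0 probes risen and 0 fallen (2616 and 3755 at an unadjusted p under 0.05), and 0 serpin genes risen and 0 fallen (1 and 6 at an unadjusted p under 0.05); the Serpinb6 differences were -1.63 (a), -5.35 (b), -1.94 (c), -2.71 (d) and -2.80 (e), with adjusted p from 0.12 to 0.187.

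Of all probes, 1487 fell with quantile scaling. With housekeeping scaling 4040 rose and 593 fell, against 1907 and 2324. With the slide part in the fit 442 rose and 271 fell. Leaving out 1 array gave 1016 to 1770 risen and 690 to 1979 fallen probes, with the lowest counts without siControl replicate 1. The count of risen serpin genes was 0 (limma, with 3, 3, 3, 2 and 3 at an unadjusted p under 0.05) with normexp, quantile scaling, no filter, the slide part and trend and robust eBayes. It was 2 with housekeeping scaling, and 0 to 1 on leaving out 1 array.

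Signs of uncalled genes turned as follows. Normexp gave -0.077 for Serpina3c, 0.023 for Serpinb5, -0.029 for Serpine2 and 0.020 for Serping1. Serpine2 was -0.076 with quantile scaling, -0.021 with median scaling, -0.0013 with the authors' table, -0.41 with the replicate block and -0.52 with the slide part. Serpina3c was -0.010 with median scaling and -0.27 with array weights, and Serpinb8 was -0.024 with array weights. Housekeeping scaling gave 0.036 for Serpina10, 0.38 for Serpina1e, 0.15 for Serpina3h, 0.0063 for Serpina3m, 0.047 for Serpinb3c, 0.48 for Serpinb5, 0.50 for Serping1 and 0.35 for Serpini1. The replicate block gave 0.76 for Serpina3m, -0.50 for Serpina9 and 0.022 for Serpinb5, and the slide part 2.28 for Serpina3m and 0.39 for Serping1. On leaving out 1 array, Serpina3c ran from -0.63 to 0.59, Serpina3m from -1.81 to 0.59, Serpinb5 from -1.24 to 1.08, Serpinb8 from -0.22 to 0.65, Serpine2 from -0.36 to 0.67, Serpinf2 from -0.92 to 1.00, Serping1 from -0.20 to 0.38, Serpinh1 from -0.15 to 0.56 and Serpini1 from -1.20 to 1.73. The cause was not tested.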
